A study of Mus musculus with 16 samples.

Results

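The proteasome genes described here are the 40 protein-coding genes of 32826 genes listed in any of the 3 deposited mouse tables whose symbols begin with Psma, Psmb, Psmc or Psmd and a number. All 40 were listed in each table. By role, 19 belong to the 20S core particle and 21 to the 19S regulatory particle group. The core group holds 7 alpha ring subunits, 7 beta ring subunits and 5 subunits that are induced by interferon or made in single tissues. The regulatory group holds 6 ATPases of the base, 3 other base subunits, 8 lid subunits, 3 assembly chaperones and Psmc3ip. Psmc3ip matches the name pattern but encodes a meiotic recombination protein, so 31 of the 40 genes are constitutive subunits of the 26S proteasome.

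The proteasome is the protease that degrades ubiquitin-tagged proteins. Its core is a barrel of stacked rings, in which Psmb5, Psmb6 and Psmb7 carry the active sites facing the inner chamber and the alpha subunits form the gate. The regulatory particle binds ubiquitin chains, removes them and unfolds the substrate, and its ATPase ring pushes the substrate into the core. The subunits are assembled in fixed numbers, and in mammals the transcription factor Nfe2l1 raises the genes together when the protease is inhibited.

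RNA was measured in mouse E14 embryonic stem cells, an established line, in 16 libraries that form 8 groups of 2. In 14 libraries RNA made during 15 min of labelling with 4-thiouridine (4sU), a uridine analogue, was pulled down and sequenced, and in the other 2 total RNA of wild-type (WT) cells was sequenced. Each mutant lacks, or can be made to lack, a subunit of SAGA or ATAC, which are coactivators with an acetyltransferase module in common. The libraries come from 3 sequencing projects, each mutant beside WT 4sU libraries of its own project. Project 1 holds AID-Tada3 (the shared module) and the total RNA, project 2 holds AID-Yeats2 (ATAC) and Supt7l-/- (SAGA), and project 3 holds AID-Zzz3 (ATAC). AID names an auxin-inducible degron, which allows the tagged protein to be degraded on addition of auxin. All lines, WT and Supt7l-/- included, had auxin for 24 h, in serum medium with CHIR99021, PD0325901 and leukaemia inhibitory factor. The 2 libraries of a mutant are separate clones. WT replicate 1 is the plain line and WT replicate 2 overexpresses Tir1 and BirA, so the spread within WT includes that difference, and whether further cultures were sampled per clone is not given in the sources used here.

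Mouse gene counts summed to 8268061 to 15994518 per 4sU library and to 4903998 and 6378707 in the total RNA libraries. Levels are counts per 1000000 counts of the effective library size (CPM), which edgeR's TMM method sets so that the bulk of mouse genes does not change. Of 9 pluripotency markers 8 were in the tables, and their summed level was 2470.8 to 3034.4 CPM per 4sU library, against 10.7 CPM at most for fibroblast and 18.5 CPM at most for trophectoderm markers. Read counts of the targeted genes check no protein: AID-Zzz3 clones had 288 and 299.8 CPM of Zzz3 against 430.3 and 448 in WT (adjusted p = 0.034), and the other targeted genes did not pass the test in their mutants. Tada3 had 12.2 and 10.5 CPM against 31.3 and 23.9 in WT (log2 fold change -1.28, adjusted p = 0.0577), and Yeats2 had 109 and 188 CPM against 241.9 and 256 (-0.74, adjusted p = 0.284). Supt7l had 8.87 and 14.1 CPM in the libraries labelled Supt7l-/- against 13.9 and 14.3 in WT (-0.29, adjusted p = 0.479), so that clone 2 lay between the WT libraries and the gene's read count does not check that label. These and all other adjusted p-values are from edgeR's quasi-likelihood test with Benjamini-Hochberg adjustment over all genes tested, with a threshold of 0.05, unless another tool is named.

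In WT cells the constitutive subunits were abundant in total RNA and made up a smaller part of newly synthesized RNA. Their summed level was 5988 and 6550 CPM in the total RNA libraries and 2686 and 2683 CPM in the WT 4sU libraries of project 1. Of the 5 induced and tissue-specific subunits, 3 had at most 14 counts in any library. Psmb8, the interferon-induced counterpart of Psmb5, had 0 or 1 counts in each of the 16 libraries. Psmb9, the counterpart of Psmb6, had 0 to 5 counts, and the thymic subunit Psmb11 had 3 to 14. Psmb10, the counterpart of Psmb7, had 40 and 71 counts in total RNA and 2 to 16 counts in 4sU libraries. Its level in project 1 was 7.78 and 10.9 CPM in total RNA and 0.775 and 0.854 CPM in WT 4sU RNA, lower in the latter by edgeR (log2 fold change -3.51, adjusted p = 0.000179).

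Psma8, an alpha subunit known from the testis and close in sequence to Psma7, had the most counts of these 5 genes in every library. It had 29.4 and 45.0 CPM in total RNA and 52.0 and 59.4 CPM in WT 4sU RNA of project 1. Both 4sU values were above both total RNA values. No 50-base stretch of its annotated transcripts occurred in a transcript of another gene. In mutant 4sU libraries it lay between 48.8 CPM (AID-Yeats2 clone 1) and 73.0 CPM (AID-Zzz3 clone 1), and WT 4sU libraries held 50.8 to 66.8 CPM.

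The comparison of WT 4sU with WT total RNA asks which transcripts are over- or underrepresented among RNA made in the labelling time. Relative to the bulk of genes, 31 of 37 members tested passed, where 63.4% of all genes tested did. Of these 28 were lower in 4sU RNA (all genes: 33%) and 3 were higher (30.4%). Among protein-coding genes the shares were 35.5% lower and 29.4% higher. DESeq2 called 27 lower and 3 higher (55.3% of all genes in either direction), and at an unadjusted p under 0.05 edgeR had 32 members (67.4%). The median log2 fold change was -1.56 over 16 core members and -1.79 over 21 regulatory members, against 0.05 over all genes tested. These values hold for scaling to the bulk of mouse genes. Scaled to the spike-in RNA instead, all genes had a median of 2.34 and the members 0.59, with 20 members higher and 7 lower (all genes: 81.5% higher and 3.97% lower), so that only the position below the bulk of genes, not the sign, was common to both scalings. Total RNA was depleted of ribosomal RNA and 4sU RNA was not, and 4sU RNA was fragmented before purification, so preparation and RNA fraction cannot be told apart. With such unlike preparation the spike-in scale gives no common unit of amount for the 2 kinds of RNA. A median of 2.34 on it does not mean that there was more labelled than total RNA.

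Within the beta ring 5 of 7 subunits were lower and none higher. Psmb4 had the largest difference of all members. It had 335.7 and 371 CPM in total RNA and 13.3 and 13.5 CPM in 4sU RNA, a log2 fold change of -4.72 (95% interval -5.10 to -4.34, adjusted p = 1.1e-05). The catalytic subunit Psmb6, which cleaves after acidic residues, followed with 328.9 and 373 CPM against 18.7 and 20.6 CPM and a log2 fold change of -4.16 (interval -4.55 to -3.77). Per the deposited tables (mm10), Psmb4 lies on chromosome 3 at 94884093-94886961 on the minus strand, and Psmb6 lies on chromosome 11 at 70525367-70527858 on the plus strand. Both genes were more than an order of magnitude lower in 4sU RNA in each library.

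The other catalytic subunits did not share this. Psmb5, the chymotrypsin-like site, had 8.36 and 14.0 CPM in total RNA and 9.30 and 7.47 CPM in 4sU RNA, and the groups overlapped (log2 fold change -0.43, interval -1.14 to 0.29, adjusted p = 0.257). Psmb7, the trypsin-like site, had 217.6 and 267 CPM against 264.6 and 289 CPM, which also overlapped (0.19, interval -0.18 to 0.56, adjusted p = 0.315). The level of Psmb5 is uncertain: 54.1% of the 50-base stretches of its annotated transcripts occurred in transcripts of other genes, 47.4% in pseudogenes, and the treatment of such reads is not given in the sources used here.

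In the alpha ring 5 of 7 subunits were lower and Psma3 was the highest of all members. Psma3 had 50.8 and 62.8 CPM in total RNA and 128.2 and 142 CPM in 4sU RNA, a log2 fold change of 1.25 (interval 0.87 to 1.63, adjusted p = 0.000417). Psma3 lies on chromosome 12 at 70974621-70996347 on the plus strand. A part of its sequence, 15.4% of the 50-base stretches, occurred in 3 pseudogenes. Psma7, which fell to 21.7 and 19.0 CPM from 214 and 203.5 CPM, was the lowest of the ring at -3.36. Psma5 did not pass the test (0.26, interval -0.073 to 0.59, adjusted p = 0.146), and 49.1% of its 50-base stretches occurred in 2 pseudogenes.

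All 6 ATPases of the base were lower, with a median of -2.21 and values from -3.83 (Psmc4) to -1.04 (Psmc2). Psmc4 had 295 and 333 CPM in total RNA and 23.7 and 20.5 CPM in 4sU RNA (interval -4.22 to -3.44, adjusted p = 1.1e-05). Psmd2 and Psmd4, base subunits that dock substrates, were lower by similar amounts (-2.51 and -2.69), whereas Psmd1, the other scaffold of the base, had 259 and 279.7 CPM against 271.7 and 272 CPM, which overlapped (0.013, interval -0.30 to 0.33, adjusted p = 0.938).

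The lid was divided. Psmd8, Psmd6, Psmd13, Psmd3 and Psmd12 were lower, from -3.61 for Psmd8 to -1.34 for Psmd12. Psmd14, the deubiquitinase that removes the chain from the substrate, was higher, with 304 and 289 CPM in total RNA and 513.6 and 503 CPM in 4sU RNA (0.78, SE 0.14, adjusted p = 0.00183). Psmd11, a scaffold of the lid, was also higher, with 131 and 126 CPM in total RNA against 242 and 248 CPM (0.93, interval 0.62 to 1.24, adjusted p = 0.000693). Psmd14 lies on chromosome 2 at 61711694-61800376 on the plus strand, and Psmd11 lies on chromosome 11 at 80428615-80473248 on the plus strand. Psmd7, the partner of Psmd14, overlapped between the groups at 30.5 and 45.3 CPM against 38.5 and 38.2 CPM (0.013, interval -0.47 to 0.50, adjusted p = 0.960). The assembly chaperones Psmd5, Psmd9 and Psmd10 were all lower, and so was Psmc3ip, with 19.4 and 25.1 CPM against 6.07 and 6.83 CPM.

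**Figure D1:**
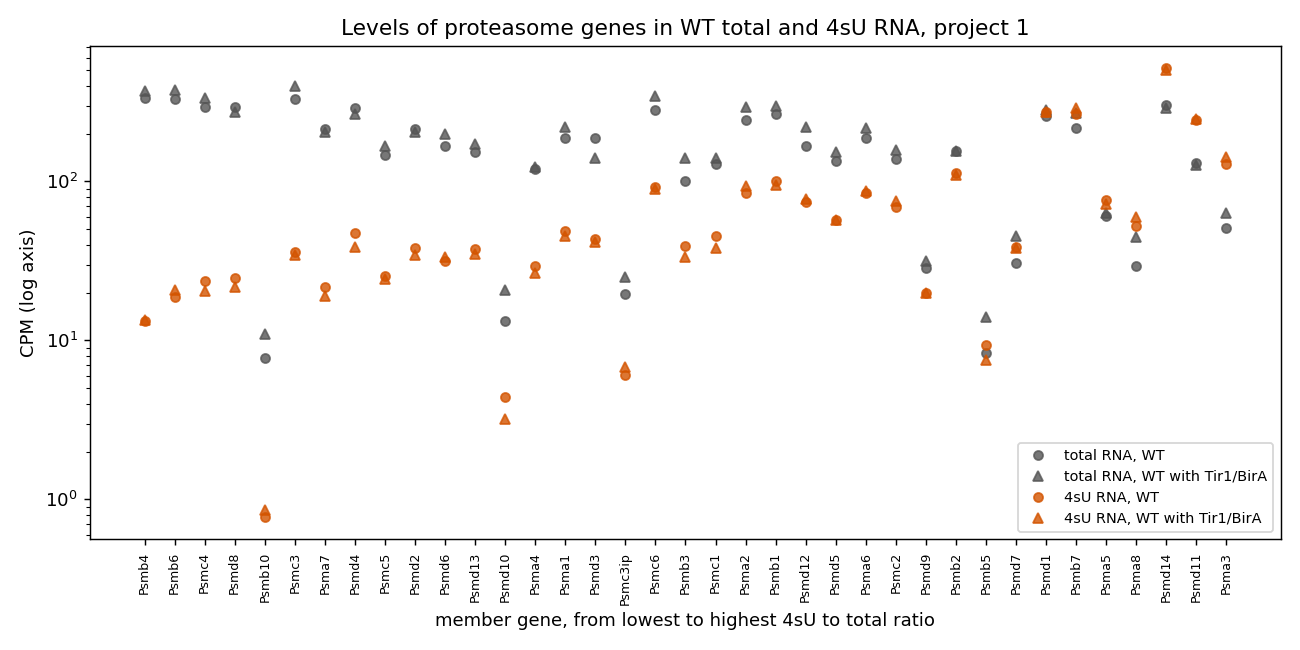
CPM of the 37 members tested in the 2 total RNA libraries (grey) and the 2 WT 4sU libraries (orange) of project 1 on a log axis, with genes ordered by their 4sU to total ratio and a point for each library. Psmb4, Psmb6 and Psmc4 stand at the left with total RNA far above 4sU RNA, and Psmd14, Psmd11 and Psma3 at the right with 4sU RNA above.

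Cell line pairs these libraries, since each line gave 1 total and 1 4sU library. With the line as a block Psma8 passed as well (log2 fold change 0.60, adjusted p = 0.000152, against 0.58 and adjusted p = 0.0502 without the block). Overlapping genes could add reads to a member: 20 of 40 members overlap another annotated gene and 10 another protein-coding gene, among them Psmb7 with Nek6 and Psmd1 with Htr2b, both on the opposite strand, and Psma2 with AW209491 on the same strand. Of the 19 members tested that overlap no gene, 16 were lower and 1 was higher, with a median of -2.11. Of 7 members tested that shared at least 10% of their 50-base stretches with pseudogenes, 4 were lower and 1 was higher, against 24 and 2 of the other 30.

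The ratio followed the length of the gene from its first to its last base. Over the 37 members the log2 4sU to total ratio had a Pearson correlation of 0.719 and a Spearman correlation of 0.731 with the log2 gene span. Over 12749 protein-coding genes the same correlations were 0.696 and 0.720, close to those of the members. The points share their libraries and are not independent. Psmb4 and Psmb6 span 2.87 and 2.49 kb, and exons fill 68.0% and 75.1% of them. Psmd14 and Psmd11 span 88.7 and 44.6 kb, and exons fill 3.18% and 14.3%. Other members departed from this order: Psma3, with the highest ratio, spans 21.7 kb, while Psmd9 (80.7 kb) was at -0.59 and Psma2 (61.0 kb) at -1.59. The annotated spans of the latter 2 are uncertain as lengths. That of Psmd9 begins at chr5:123169413, but the bases before its RefSeq start end at chr5:123228189, inside the span. That of Psma2 includes 8943 bases shared with AW209491.

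Compared with protein-coding genes of like span the members lay low in each class. Of 37 members 31 were below the protein-coding median of their span class. In the class of 10 to 20 kb all 9 members were below, with a median of -1.95 against -0.81 for 2425 genes. In the class of 50 kb and over all 6 members were below, with a median of 0.10 against 1.09 for 4005 genes. The members above the median of their class were Psmb5 and Psmc3ip under 5 kb, Psmd7 in the class of 5 to 10 kb, and Psma3, Psma5 and Psmd11 in that of 20 to 50 kb. No test was made of this difference, since genes are not replicates.

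**Figure D2:**
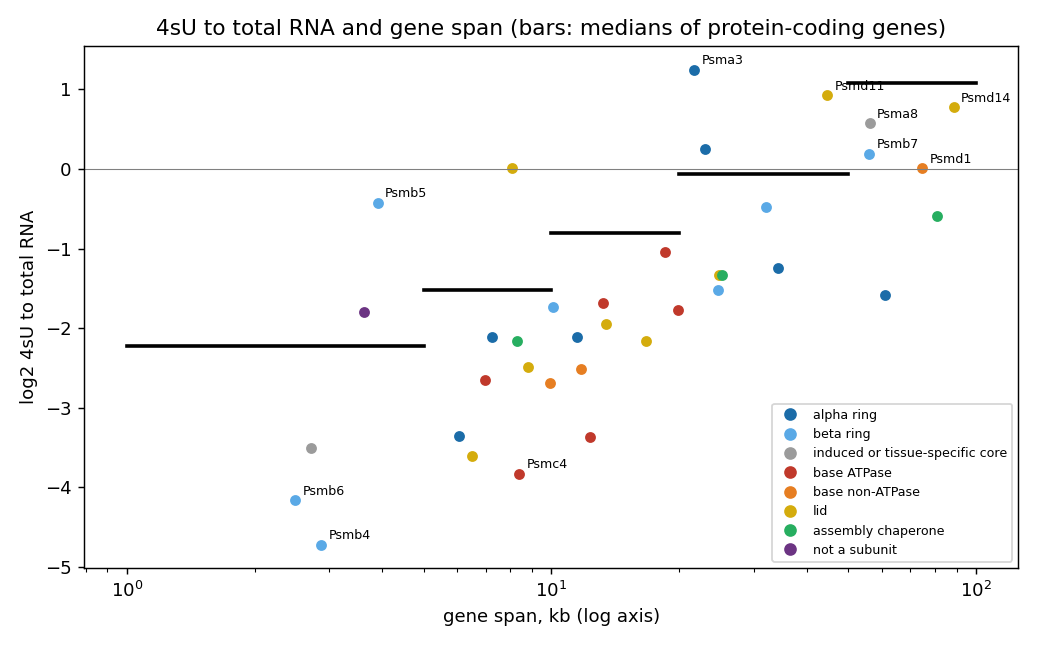
Log2 ratio of WT 4sU to WT total RNA (y axis) of the 37 members tested against gene span in kb on a log axis (x axis), coloured by role, with black bars for the median of protein-coding genes in each span class. Points rise from Psmb4 at -4.72 and 2.87 kb to Psmd14 at 0.78 and 88.7 kb, and 31 of 37 lie below the bar of their class.

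Levels per length compare the subunits with each other in newly synthesized RNA. Per kb of gene span, the 31 constitutive subunits in WT 4sU RNA of project 1 lay between 1.47 CPM per kb (Psma2) and 7.88 CPM per kb (Psmb6), a range of 5.38-fold, with a median of 3.59. The SD of these levels on the log2 scale was 0.486 between subunits, and 2.498 between 12741 protein-coding genes. In total RNA per kb of the median transcript length in the deposited tables they lay between 14.7 (Psmb5) and 543 CPM per kb (Psmb4), a range of 36.9-fold, with an SD of 1.18, against 2.72 between 12737 protein-coding genes. The low end of that range is uncertain, since 54.1% of the 50-base stretches of Psmb5 occurred in transcripts of other genes.

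The spread depended on the length used. In 4sU RNA per kb of the median transcript length the SD between the same 31 genes was 1.46 (protein-coding genes: 2.69). Per kb of all exons it was 1.20 (2.31), and total RNA had 1.04 on that length. On neither length was 4sU RNA less spread than total RNA. In total RNA per kb of gene span the SD was 1.55 (3.10), with Psmb6 at the top and Psma3 at the bottom. The protein-coding genes are those tested, of any level, while the 31 are constitutive subunits. Over the 7 groups of 4sU libraries the SD per kb of gene span lay between 0.486 and 0.569, in WT and mutants alike. Psma2 or Psmb5 was the lowest and Psmb6 the highest in every group. The annotated span of Psma2 includes 8943 bases shared with AW209491. Whether the authors counted intronic reads is not given in the sources used here.

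**Figure D3:**
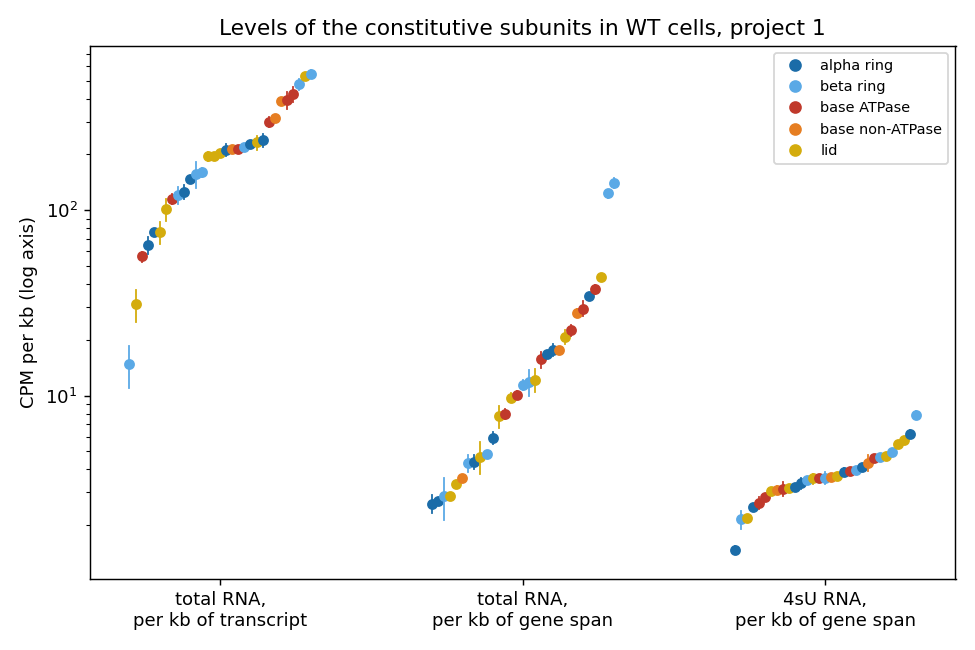
Levels of the 31 constitutive subunits in WT cells of project 1 in CPM per kb on a log axis, from left to right in total RNA per kb of transcript, in total RNA per kb of gene span and in 4sU RNA per kb of gene span, with a point for the mean and a line between the 2 libraries. The points of 4sU RNA per kb of span lie between 1.47 and 7.88, a narrower range than either set of total RNA.

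In the mutants each 4sU group was compared with WT 4sU of its own project. With TMM scaling this asks whether new proteasome RNA changed relative to the bulk of mouse genes in mutants of SAGA or ATAC. A change that all genes share cannot be seen on this scale, and values on the spike-in scale are given further below. No member passed the test in any of the 4 mutants. Of all genes tested 0.0331% passed in AID-Tada3, 7.24% in AID-Yeats2, 3.33% in Supt7l-/- and 0.984% in AID-Zzz3. By direction, higher then lower, these were 0% and 0.0331%, 3.92% and 3.32%, 1.32% and 2.02%, and 0.681% and 0.303%. At an unadjusted p under 0.05 the members counted 0, 7, 3 and 0 of 37 in the same order, against 8%, 21.3%, 18.3% and 12.9% of all genes. DESeq2 in place of edgeR also called 0 of 37 in each, where it called 0.212%, 4.11%, 2.58% and 1.8% of all genes. In these bulk samples fewer expressing cells and less RNA per cell cannot be told apart. The summed level of the constitutive subunits lay between 2540 and 2813 CPM in all 14 4sU libraries.

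The intervals say how large a difference relative to the bulk of genes could have been missed. The 95% interval of the log2 fold change lay between -1 and 1 for 35 members in AID-Tada3 and for 36 in each of the other mutants. Of all genes 75.4%, 74.7%, 73.8% and 71.5% had such an interval. The interval lay between -0.5 and 0.5 for 33, 29, 28 and 25 members. The same held for 44.9%, 41.4%, 43.8% and 33.5% of all genes tested, many of them with fewer counts. Wide intervals belonged to the genes with few counts, such as Psmb10 (-2.20 to 1.47 in AID-Yeats2), Psmd10 and Psmc3ip. AID-Yeats2 and Supt7l-/- share their WT libraries, so their values are given side by side and are not independent.

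**Figure D4:**
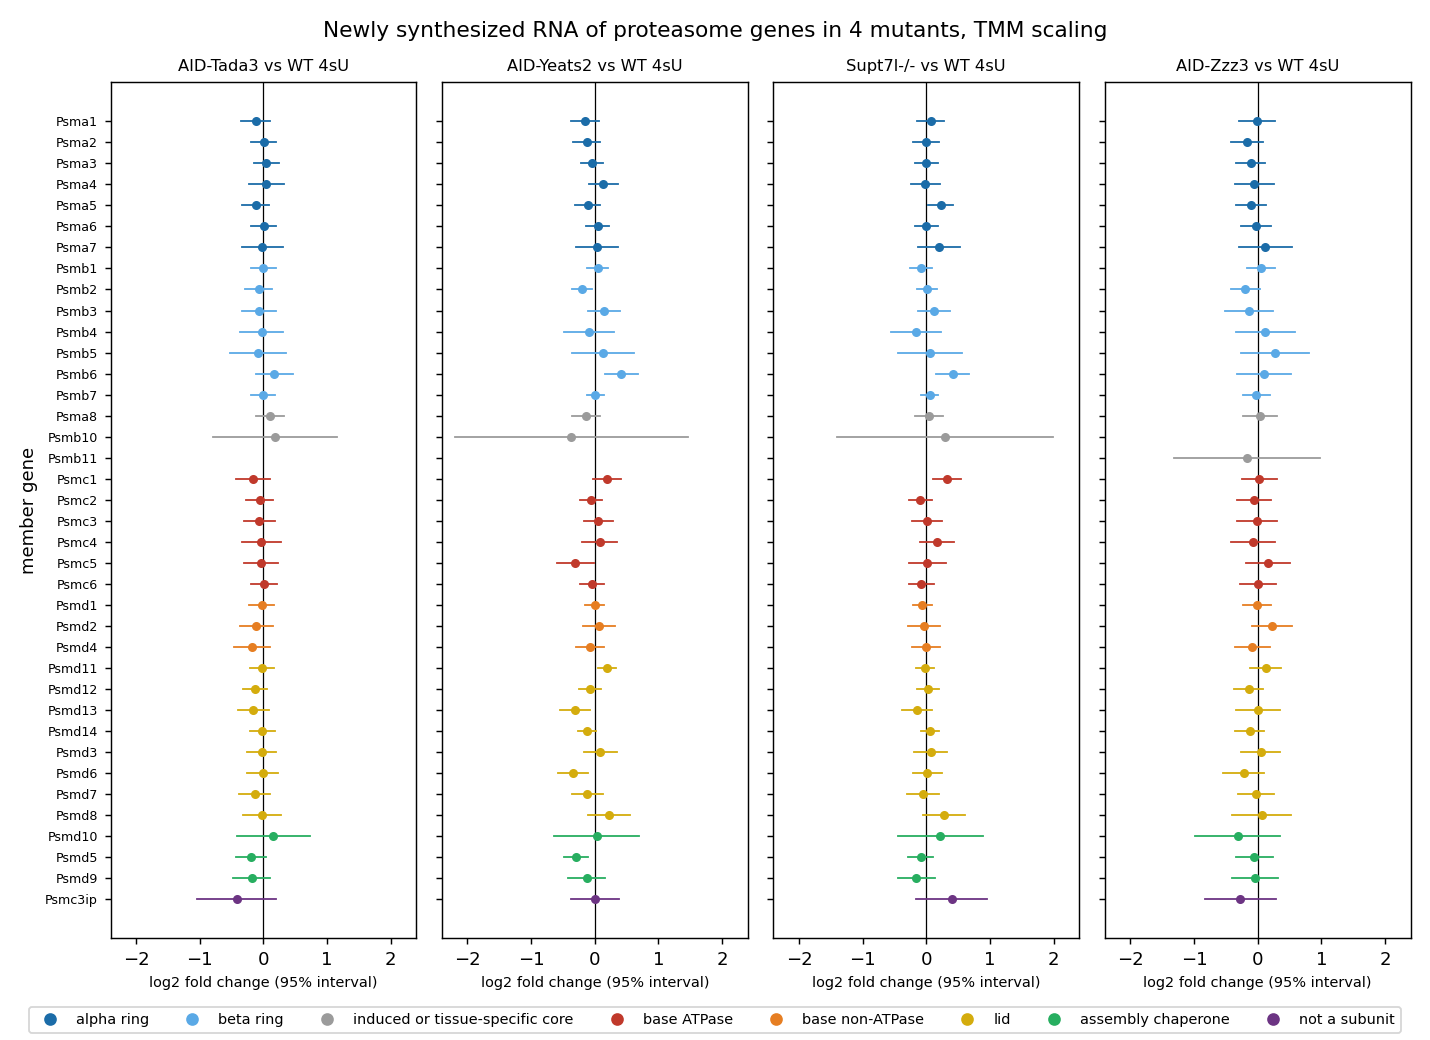
Log2 fold change of each member tested in 4sU RNA of 4 mutants against WT 4sU of the same project (x axis, TMM scaling), with lines for the 95% interval and colours for the role. Points lie between -0.5 and 0.5, and Psmb10, Psmb11, Psmd10 and Psmc3ip, the genes with the fewest counts, have the widest intervals.

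In AID-Tada3 the core median was -0.0042 and the regulatory median -0.057, against -0.0046 over all genes. Values of the 8 lid subunits lay from -0.16 to -0.0097, and none passed. Their common sign was not tested, since genes are not replicates. The smallest p belonged to the assembly chaperone Psmd5, at 44.6 and 51.8 CPM in the clones while WT had 55.7 and 54.9 CPM (fold change -0.20 on the log2 scale, interval -0.43 to 0.037, adjusted p = 0.653). The lid subunit Psmd12 had 68.3 and 66.6 CPM against 72.9 and 74.8 CPM (-0.13, interval -0.32 to 0.062, adjusted p = 0.737). In both genes the clones lay below both WT libraries. Both clones lay below both WT libraries for 8 of 37 members and above for 2, where 20.3% and 19.3% of all genes tested did. Psmc3ip, with 3.35 and 5.93 CPM against 5.92 and 6.57 CPM, overlapped in range (-0.42, interval -1.04 to 0.20).

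In AID-Yeats2 the core median was -0.020 and the regulatory median -0.045. The catalytic subunit Psmb6 came nearest to the threshold, with 27.5 and 25.2 CPM in the clones against 19.7 CPM in each WT library (0.42, interval 0.16 to 0.68, adjusted p = 0.0515). Psmd5 had 53.8 and 50.1 CPM against 64.0 and 63.8 CPM (-0.30, interval -0.49 to -0.11, adjusted p = 0.0599). The lid subunit Psmd6 had 27.8 and 30.4 CPM against 35.8 and 37.9 CPM (-0.34, interval -0.57 to -0.11, adjusted p = 0.0753). The clones lay above WT in Psmb6 and below it in Psmd5 and Psmd6, without overlap.

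These values sit at the edge of the test. With DESeq2's size factors Psmb6 passed (adjusted p = 0.0499). With each library left out in turn, the log2 fold change ranged from 0.36 to 0.49 for Psmb6. It ranged from -0.35 to -0.24 for Psmd5 and from -0.40 to -0.27 for Psmd6. Clones and WT did not overlap for 17 members, 6 with the clones above and 11 with the clones below, where 25.3% and 25.8% of all genes did the same.

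In Supt7l-/- the core median was 0.047 and the regulatory median 0.011. Psmb6 again had the smallest p, with 26.4 and 26.1 CPM in the clones against 19.7 CPM in each WT library (0.41, interval 0.15 to 0.68, adjusted p = 0.0828). The ATPase Psmc1 had 52.3 and 48.1 CPM against 42.0 and 37.9 CPM (0.33, interval 0.11 to 0.55, adjusted p = 0.100), and Psma5 had 78.4 and 83.6 CPM against 74.0 and 64.3 CPM (0.23, interval 0.031 to 0.42, adjusted p = 0.199). In all 3 genes both clones were above both WT libraries, which was so for 7 of 37 members and for 24% of all genes. Both clones were below for 5 members (24.4% of all genes). With each library left out in turn, the log2 fold change ranged from 0.40 to 0.42 for Psmb6. It ranged from 0.26 to 0.40 for Psmc1 and from 0.13 to 0.33 for Psma5.

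In AID-Zzz3 the core median was -0.026 and the regulatory median -0.025. The beta subunit Psmb2 had 108 and 106.6 CPM in the clones against 119.5 and 126 CPM (-0.19, interval -0.42 to 0.033, adjusted p = 0.466). Psmd2 had 37.9 and 31.9 CPM against 29.9 and 29.6 CPM (0.23, interval -0.090 to 0.54, adjusted p = 0.542), and Psmd6 had 27.4 and 32.6 CPM against 36.4 and 33.9 CPM (-0.22, interval -0.54 to 0.096, adjusted p = 0.553). Clones and WT did not overlap for 14 members, 4 above and 10 below, where 22.8% and 21.9% of all genes did the same. A joint edgeR fit tested whether the change from WT differed between the ATAC mutants AID-Yeats2 and AID-Zzz3, and 0 of 38 members passed (0% of all genes). At an unadjusted p under 0.05 there was 1 member (2.45% of all genes), Psmc5, with a log2 difference of -0.46 (interval -0.87 to -0.047), and DESeq2 called 0 members (0.0194% of all genes).

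Scaling to the spike-in RNA moved the members with all other genes. Labelled RNA of Drosophila or fission yeast cells had been added to each sample, and the 4sU RNA of mouse genes per spike-in RNA was 89.6% of WT in AID-Tada3, 71.0% in AID-Yeats2, 78.0% in Supt7l-/- and 77.7% in AID-Zzz3. With 2 libraries against 2 an exact two-sided permutation test cannot go below p = 0.333, and it gave 0.667, 0.333, 0.333 and 0.333. On this scale the median of all genes was -0.16, -0.50, -0.36 and -0.36, and that of the members -0.19, -0.53, -0.34 and -0.39. Members and all genes thus had nearly the same shift in each mutant.

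On the spike-in scale 0, 11, 0 and 12 of 37 members were called lower by edgeR and none higher. Of all genes 1.48%, 23.5%, 4.45% and 24.7% were lower and 0.172%, 0.407%, 0.22% and 0.888% higher. The lowest value among the members called was that of Psmd6 in both AID-Yeats2 (-0.83, adjusted p = 0.0137) and AID-Zzz3 (-0.59, adjusted p = 0.0302). In the authors' deposited table, of 34 members with an adjusted p 20 were lower in AID-Yeats2 and 10 of 33 in AID-Zzz3, where 48.9% and 35.7% of all genes were lower and 0.369% and 0.845% higher. The authors' deposited table has a median log2 fold change of -0.48 over the members and -0.46 over all genes in AID-Yeats2, and of -0.34 over both in AID-Zzz3. In the authors' deposited table no member is lower in AID-Tada3 (0.0559% of all genes) or Supt7l-/- (8.86%), and none is higher in any mutant (0.00699% and 0.0476% of all genes in these).

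AID-Yeats2 and Supt7l-/- were also compared with each other, so that the difference is not taken from the WT libraries they share. The fit still held all 4sU libraries of project 2, and the WT libraries entered its filter, scaling and estimate of the spread. Of 37 members 3 passed, where 16.3% of all genes tested did (8.95% higher and 7.32% lower in AID-Yeats2). At an unadjusted p under 0.05 there were 8 (30.2% of all genes). Psma5 was lower in AID-Yeats2, with 65.3 and 63.1 CPM against 78.4 and 83.6 CPM (log2 difference -0.34, SE 0.092, adjusted p = 0.0229). Psmd6 was lower too, with 27.8 and 30.4 CPM against 36.5 and 38.0 CPM (-0.36, SE 0.11, adjusted p = 0.0372). Psmd11 was higher, with 281 and 284.6 CPM against 246 and 241.7 CPM (0.21, SE 0.064, adjusted p = 0.0363). These genes hold chr3:108256926-108279974 (Psma5), chr14:14112174-14120984 (Psmd6) and, for Psmd11, the stretch of chromosome 11 already given. The clones of the mutants did not overlap in these 3 genes. None of the 3 passed with DESeq2 (9.63% of all genes called), on the spike-in scale (2.29% higher and 2.69% lower) or without any 1 of the 4 libraries.

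**Figure D5:**
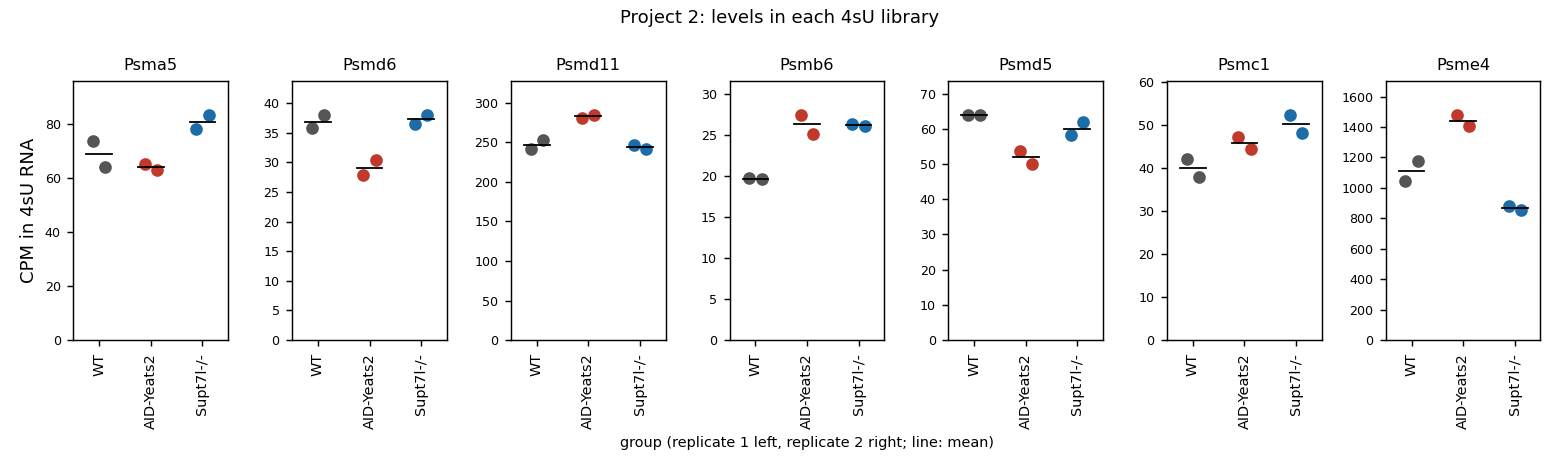
CPM in each 4sU library of project 2 for 6 members and the proteasome activator Psme4, with points for the 2 libraries of WT (grey), AID-Yeats2 (red) and Supt7l-/- (blue), a line at the mean and axes from 0. Psma5, Psmd6 and Psmd11 separate the mutants, Psmb6 lies above WT in both, and Psme4 lies above WT in AID-Yeats2 and below it in Supt7l-/-.

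The WT lines were compared with each other as well. With project as a block, 0 of 36 members tested differed between WT with Tir1 and BirA and plain WT by edgeR, and 0 by DESeq2, where 1.24% and 1.5% of all genes did. At an unadjusted p under 0.05 there were 2 (14% of all genes), the lid subunit Psmd8 (-0.30, interval -0.55 to -0.052) and Psma7 (-0.31, interval -0.56 to -0.053).

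The promoters of the members that came nearest to or past the threshold in project 2 are shown here as the 150 bases before the start of the RefSeq transcript (GRCm38.p6), 5′ to 3′ on the strand of the gene. RefSeq starts and annotated gene ends differ: the Psmd5 window lies inside its annotated gene (chr2:34849734-34874968). Those of Psmc1 and Psmd6 partly overlap theirs. Capitals mark matches on either strand to CCGGAAG, the core bound by ETS factors, or to TGACNNNGC, the antioxidant response element core known to be bound by Nfe2l1 and Nfe2l2.

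Psmd6 (chr14:14120946-14121095, minus strand): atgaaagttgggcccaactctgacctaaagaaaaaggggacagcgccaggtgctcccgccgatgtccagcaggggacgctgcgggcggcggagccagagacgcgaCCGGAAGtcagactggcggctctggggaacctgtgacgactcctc
Psmd11 (chr11:80428465-80428614, plus strand): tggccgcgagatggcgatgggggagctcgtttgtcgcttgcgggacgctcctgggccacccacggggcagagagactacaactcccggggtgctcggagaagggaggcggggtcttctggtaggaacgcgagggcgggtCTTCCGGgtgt
Psma5 (chr3:108256776-108256925, plus strand): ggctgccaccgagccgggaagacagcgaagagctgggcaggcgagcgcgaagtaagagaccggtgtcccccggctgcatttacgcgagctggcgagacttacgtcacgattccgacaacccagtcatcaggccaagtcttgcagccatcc
Psmb6 (chr11:70525207-70525356, plus strand): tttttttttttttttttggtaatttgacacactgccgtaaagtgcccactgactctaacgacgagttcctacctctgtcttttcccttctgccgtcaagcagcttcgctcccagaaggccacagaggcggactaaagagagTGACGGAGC
Psmc1 (chr12:100110052-100110201, plus strand): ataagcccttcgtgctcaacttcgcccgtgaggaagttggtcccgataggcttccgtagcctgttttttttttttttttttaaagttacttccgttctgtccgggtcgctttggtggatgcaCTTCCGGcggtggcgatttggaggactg
Psmd5 (chr2:34870963-34871112, minus strand): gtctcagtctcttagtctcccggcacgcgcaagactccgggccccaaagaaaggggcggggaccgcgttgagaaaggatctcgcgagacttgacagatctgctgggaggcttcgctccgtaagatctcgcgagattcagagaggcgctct

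Of 40 members 33 had an entry, with 35 start sites, and motifs were searched on both strands in the 250 bases before each. CCGGAAG was present in 11 of 35 (31.4%), against 6.91% of 32851 promoters of all genes and 13.1% of 12764 promoters of protein-coding genes tested. It was found in Psma6, Psmc1, Psmc2, Psmc3ip, Psmc6, Psmd11, Psmd12, Psmd2, Psmd4 and Psmd6. Counted from the start, with -1 for the base before it, the match in Psmd11 begins at -11, in Psmd6 at -45 and in Psmc1 at -28. All but Psma6 carry regulatory particle symbols.

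TGACNNNGC was present in 5 of 35 (14.3%, against 10.2% and 11.5%), and in Psmb6 it begins at -9. CCAAT was present in 14 (40%, against 33.8% and 35.5%), and CACGTG in 3 (8.57%, against 6.02% and 8.1%). TATAAA was present in 4 (11.4%, against 12.4% and 6.2%). None of these motifs contains another. Of the 3 genes that differed between AID-Yeats2 and Supt7l-/-, Psmd6 and Psmd11 hold a CCGGAAG match, in opposite directions of change, and Psma5 holds none in this window. A match is a description of the letters and was not tied to binding here.

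Other genes of the pathway were activators, assembly factors, bound enzymes, shuttles, ubiquitin genes and regulators, and 35 of the 37 found were tested. In AID-Tada3 and AID-Zzz3 none of them passed with edgeR or DESeq2 (2 and 1 at an unadjusted p under 0.05). In AID-Yeats2 1 was higher and 2 were lower, where 3.92% and 3.32% of all genes were. Psme4, which encodes the activator PA200 that caps the core, was the one that rose, with 1479.8 and 1404.5 CPM against 1042.3 and 1174.7 CPM (0.38, SE 0.065, adjusted p = 0.00273). The segregase Vcp fell by 0.29 (100.1 and 107.6 against 127.3 and 127 CPM, adjusted p = 0.0304) and its cofactor Ufd1 fell by 0.35 (42.2 and 42.1 against 57.4 and 50.02 CPM, adjusted p = 0.0471) on the log2 scale.

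In Supt7l-/- Psme4 was instead the only pathway gene called, and it fell by 0.35, with 883.6 and 854 CPM (adjusted p = 0.00913), where 2.02% of all genes fell. Tested directly, Psme4 was higher in AID-Yeats2 than in Supt7l-/- by 0.73 on the log2 scale (SE 0.066, adjusted p = 1.5e-05), with no overlap of the clones. On the spike-in scale its difference from WT in AID-Yeats2 was -0.12, so its direction there depends on the scaling, while the difference between the mutants was 0.59 (adjusted p = 0.103, edgeR). In AID-Tada3 Psme4 had 775 and 718.6 CPM against 985.6 and 865.6 CPM and did not pass (-0.31, interval -0.54 to -0.075, adjusted p = 0.531), while on the spike-in scale it was the 1 pathway gene called lower there (-0.48, adjusted p = 0.000404).

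Against total RNA 7 of the 35 were higher (all genes: 30.4%) and 18 lower (33%) in WT 4sU RNA. The activator subunits Psme1, Psme2 and Psme3 were lower (-4.10, -2.73 and -1.93), as was the ubiquitin-activating enzyme Uba1 at 80.8 and 80.7 CPM against 648 and 698 CPM (-3.06, adjusted p = 1.2e-05). Nfe2l1 was lower at -1.30. Of 5 proteasome-bound enzymes and factors 4 were higher, AI314180 (Ecpas), Ube3c, Usp14 and Uchl5, from 1.35 to 0.46, and Txnl1 was lower (-0.53). These signs hold for TMM scaling. With spike-in scaling 28 of the 35 were higher and 2 lower, where 81.5% and 3.97% of all genes were. That scale gives no common unit of amount for total and 4sU RNA.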

How the data were processed

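The authors deposited, per project, unnormalized counts of reads for mouse genes and for spike-in genes, with log2 fold changes and adjusted p-values of their own. The deposited tables also give the median length of each gene's transcripts. Tools in the submitters' processing notes are STAR 2.5.3a and Bowtie2 2.2.8, HTSeq 0.6.1p1, DESeq2 1.16.1, cutadapt 1.10 and bcl2fastq 2.17.1.14, and mm10, ASM294v2, BDGP6 and sacCer3 are the genomes named there. Whether reads were counted over exons or genes, with which strand setting, and how reads with several positions were treated is not given in the sources used here.

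All tests used the counts, in R 4.3.3 with edgeR 4.0.16 (filterByExpr with a minimum count of 10, TMM, robust quasi-likelihood fit) and DESeq2 1.42.0 as an alternative. Intervals are 95% intervals from the fit and cover the spread between these libraries. Spike-in scaling set library sizes from spike-in genes with 10 or more counts in every library of the comparison. Gene spans, overlaps and transcripts are from GENCODE M21, where 38 of 40 members had the same coordinates as in the tables. Promoters are from RefSeq. Tables and plots were made with matplotlib 3.10.9, numpy 2.4.6 and pandas 2.3.3 in Python 3.11.15. The fits were tested on simulated data with known changes, in which all genes had the same setting of the spread. That run does not show how well differences as small as those in the mutants are found.

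Members, lists and tests were chosen with earlier results of these data known. Named genes are the members called in a mutant comparison, the 3 with the smallest p in each mutant, the 3 highest and 3 lowest against total RNA, the catalytic and tissue-specific subunits, Psmc3ip, and outside genes called in a mutant comparison. Other genes were named after their values were seen, and the comparison of shared 50-base stretches, with its limit of 10%, and the lengths per kb of exons and of span were added after the data were seen. A list's median counts as moved where it shifts by more than the median SD between replicates of its members, a definition also set afterwards. In total and 4sU RNA the same WT lines were used per the labels, and line differences correlated at 0.532 over 12026 genes. Alternatives were other scalings and filters, DESeq2, a joint fit, blocks and leaving out each library.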

Additional observations from a re-analysis of the deposited data

Results flagged for a closer look

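AID-Yeats2 and Supt7l-/- differed from each other in 3 members by a direct edgeR test in project 2, with log2 differences (AID-Yeats2 minus Supt7l-/-) of -0.34 for Psma5, -0.36 for Psmd6 and 0.21 for Psmd11. Of the other pathway genes 5 differed: Psme4 by 0.73, AI314180 (Ecpas) by -0.75, Ubqln1 by -0.56, Ufd1 by -0.36 and Ngly1 by -0.62. The edgeR adjusted p-values of these were 1.5e-05, 0.0257, 0.000427, 0.0224 and 0.00958. Of all genes tested 16.3% differed, and the shares of members and of other pathway genes were not above that. None of the 3 members passed with DESeq2 or on the spike-in scale. For AI314180, Ubqln1, Ufd1 and Ngly1 these checks are not given here. AI314180 also differed between the WT lines, lower by 0.47 on the log2 scale with Tir1 and BirA (adjusted p = 0.0127, edgeR), and whether that line difference enters the comparison of the mutants was not tested.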

How the results depend on the processing

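Spike-in scaling changed most, though between 4sU and total RNA it gives no common unit of amount. It moved the core and regulatory medians to -0.16 and -0.21 in AID-Tada3, -0.51 and -0.53 in AID-Yeats2, -0.31 and -0.34 in Supt7l-/-, -0.39 and -0.39 in AID-Zzz3, 0.74 and 0.51 in 4sU against total RNA, -0.18 and -0.22 in AID-Yeats2 against Supt7l-/-, and -0.14 and -0.12 in the joint fit of AID-Yeats2 and AID-Zzz3. It moved the count of members called to 11, 12 and 0 in AID-Yeats2, AID-Zzz3 and AID-Yeats2 against Supt7l-/-, and turned the sign of Psmb6 in AID-Yeats2 (-0.081), of Psmc1 (-0.038) and Psma5 (-0.13) in Supt7l-/-, and of Psmd2 in AID-Zzz3 (-0.14). In AID-Yeats2, 1 member was called with DESeq2's size factors, 2 with no filter and 2 with at least 50 counts. The shares of all genes called at these settings are not given here, so these counts are no result about the members.

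Each library was also left out in turn, which leaves 1 library in a group, so effect sizes are given here. Medians ranged from -0.075 to 0.050 (regulatory, Supt7l-/-), and from -1.73 to -1.47 (core) and -1.98 to -1.65 (regulatory) against total RNA. The log2 ratio of 4sU RNA per spike-in ranged from -0.62 to -0.37 in AID-Yeats2, -0.55 to -0.19 in Supt7l-/- and -0.43 to -0.30 in AID-Zzz3. A group left with 1 library took its spread from the others. Without a filter the core median against total RNA was -1.33, and over constitutive subunits alone the regulatory median was -1.95. The SD of levels per kb moved to 1.04 per kb of exons and 1.55 per kb of span in total RNA, and to 1.20 and 0.486 in 4sU RNA. DESeq2 called 0 members between AID-Yeats2 and Supt7l-/-. With the clone number as a replicate block 7 were called there, 1 higher and 6 lower, but clones share only a number (correlation of differences 0.0487 over 12719 genes). With the line as a replicate block Psma8 was an added call against total RNA. The causes of these changes were not tested. For genes named singly, 241 values under an alternative kept direction and side of the threshold, 18 no longer passed, 16 newly passed and the 4 given above changed sign. Of the list medians 147 moved by less than the replicate spread, and 68 counts of members called stayed within 1.5 times. With 2 libraries a group, members with few counts could hide differences of over 1 on the log2 scale.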
